A study of Drosophila melanogaster with 4 samples.

Results

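Aminoacyl-tRNA synthetases join each amino acid to its transfer RNA, the step that gives the genetic code its meaning at the ribosome. Animal cells run this step in the cytosol and again inside mitochondria, and nuclear genes encode the enzymes for both places. In mammals, many of the cytosolic enzymes are induced by the transcription factor ATF4 when amino acids run short. The protein-coding genes of the Ensembl BDGP6 annotation were searched for symbols made of a 3-letter amino acid code, or a joined pair of codes, followed by RS with or without the suffix -m. This gave 33 genes among the 13945 protein-coding genes of the arms of chromosomes 2 and 3 and of chromosomes 4 and X. Of these, 18 have no suffix and are called cytosolic here, and 15 carry -m, which marks the mitochondrial enzyme. The division follows the symbols alone, and a gene without the suffix can also serve mitochondria, as is known for GlyRS and LysRS in animals. The enzyme for phenylalanine in the cytosol has subunits named alpha-PheRS and beta-PheRS, which the symbol rule does not take, so they are described with the partner genes.

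The protein mapped was Chinmo, a BTB zinc finger transcription factor known in flies for its part in the temporal identity of neurons and in keeping testis stem cells. Flies carried a transgene for Chinmo fused to eGFP, whole embryos aged 6 to 24 h were taken, and the fusion was precipitated with an antibody to GFP before sequencing (ChIP-seq). All 4 libraries are biological replicates of this 1 group. The labels name Chinmo in the antibody field and GFP in the description, which was followed here, and the embryo age comes from the source label because the hours in the age field are not possible for an embryo. Neither the expression pattern of the transgene nor the pooling of embryos is stated in the labels, and the control libraries were not analysed here. A whole embryo mixes many cell types, so a peak does not show in which cells Chinmo was bound.

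For each replicate the authors deposited a short list of peaks that passed an irreproducible discovery rate threshold, called thresholded here, and a longer ranked list. The thresholded lists held 3435, 4415, 2225 and 3038 peaks in replicates 1 to 4, and the ranked lists held 39725, 27034, 30166 and 34150. The lists give no reads per peak, so read depth is unknown, and where no peak is listed binding was not measured to be absent. A gene was counted in a list when a peak summit lay within 1000 bp of any of its transcription start sites (TSS). It was called bound when the centre of a shared region did so, a shared region being a set of thresholded summits from at least 3 of the 4 libraries. The strength of a peak is given as its rank percentile, the percentage of peaks of the same list whose deposited signal was no higher, so that 100 is the strongest.

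Shared Chinmo regions lay at some synthetase genes, while at most of them none was called. Of the 33 genes, 6 were bound (18.2%, 95% Clopper-Pearson interval 6.98 to 35.5), beside 12.7% of all protein-coding genes. The bound genes were GlnRS, TrpRS, GluProRS, AspRS and IleRS among the cytosolic ones and AspRS-m among the mitochondrial ones. That is 5 of 18 cytosolic genes (27.8%, interval 9.69 to 53.5) and 1 of 15 -m genes (6.67%, interval 0.169 to 31.9). The share of all genes lies inside all 3 intervals, but this is a description and no test. The intervals cover counting error over genes only, as if genes were independent draws, whereas these genes were taken by their symbols.

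Each of the 5 bound cytosolic genes has a partner gene that starts on the opposite strand, 54 to 470 bp away. The region centre falls between the pair of starts. For this reason the sequences around the bound starts are shown, except at AspRS, whose sequence is not printed here. They were read from the RefSeq Drosophila genome, Release 6 (dm6), and are written 5′ to 3′ on the strand of the synthetase gene. Capitals mark TATCGATA, the DNA replication-related element (DRE) bound by the factor Dref, its core ATCGAT where it stands alone, and GAGAG, the element of GAGA factor. The first 3 run from the base next to the partner's TSS to the base next to the synthetase's TSS. These are chr3R:25265722-25265843 for GlnRS with RIOK2, chr3R:9266905-9267018 for TrpRS with Vps16A, and chr3R:23958392-23958650 for GluProRS with AP-1sigma, all read on the minus strand. The other 3 are the 100 bases before the TSS, on the plus strand, at IleRS (chr3L:22288565-22288664), at AspRS-m (chr2L:16826978-16827077) and at TrpRS-m (chr3L:17849627-17849726), the one synthetase gene with no peak in any list of the 4 libraries.
GlnRS-RIOK2: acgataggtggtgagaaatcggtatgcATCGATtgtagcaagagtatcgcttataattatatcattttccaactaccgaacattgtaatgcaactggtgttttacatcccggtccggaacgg
TrpRS-Vps16A: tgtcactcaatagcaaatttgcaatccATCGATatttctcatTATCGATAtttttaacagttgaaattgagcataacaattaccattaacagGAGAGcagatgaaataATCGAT
GluProRS-AP-1sigma: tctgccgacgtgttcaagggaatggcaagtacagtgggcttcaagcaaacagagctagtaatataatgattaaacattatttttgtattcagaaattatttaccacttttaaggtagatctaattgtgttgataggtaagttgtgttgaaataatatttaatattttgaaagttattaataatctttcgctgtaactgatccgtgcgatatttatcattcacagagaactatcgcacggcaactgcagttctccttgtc
IleRS: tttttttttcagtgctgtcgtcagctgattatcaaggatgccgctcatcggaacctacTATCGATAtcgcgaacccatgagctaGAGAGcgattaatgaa
AspRS-m: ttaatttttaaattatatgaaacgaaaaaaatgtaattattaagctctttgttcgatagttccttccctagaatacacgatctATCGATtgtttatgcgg
TrpRS-m: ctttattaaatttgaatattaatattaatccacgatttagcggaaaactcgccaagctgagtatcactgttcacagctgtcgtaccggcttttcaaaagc

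In these letters, the centre of the shared region is base 69 of the GlnRS stretch, base 27 of the TrpRS stretch, base 220 of the GluProRS stretch and base 86 of the IleRS stretch. At AspRS-m it lies past the printed bases, 43 bp downstream of the TSS. The TrpRS stretch, 114 bp long, holds 1 full DRE and 2 further copies of its core, and the region centre is the base just before the first of these copies. No capitals appear in the 259 bp between GluProRS and AP-1sigma or before TrpRS-m.

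GlnRS, which charges the glutamine transfer RNA (FBgn0027090, chr3R:25263267-25265721), had some of the strongest peaks of the whole data set. Its rank percentile in the thresholded lists was 99.3, 99.3, 94.9 and 96.1 in replicates 1 to 4, a mean of 97.4 ± 2.25 (SD, n = 4). By signal these were peaks number 25, 32, 115 and 118 of their lists. The 4 summits lay within 33 bp of each other and the region centre was 54 bp upstream of the TSS. RIOK2, a kinase of small ribosomal subunit maturation, starts 123 bp away on the other strand, and in replicate 4 the summit was nearer to RIOK2 (41 bp) than to GlnRS (82 bp).

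TrpRS, the enzyme for tryptophan (FBgn0010803, chr3R:9265027-9266904), ranked similarly high. Its rank percentiles were 97.7, 98.9, 96.8 and 98.0 in replicates 1 to 4, a mean of 97.9 ± 0.893 (SD, n = 4), at ranks 79, 48, 73 and 62. Here the region centre was nearer to the neighbour. It lay 88 bp upstream of TrpRS and 27 bp from the TSS of Vps16A, a subunit of the complexes that tether endosomes and lysosomes, and all 4 summits were nearer to Vps16A. Counted for the nearest TSS only, TrpRS is no longer bound. Whether Chinmo acts on the synthetase, on its partner, on both or on neither cannot be told apart from peak positions.

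GluProRS, a single protein that charges both glutamate and proline transfer RNAs (FBgn0005674, chr3R:23952136-23958391), had a peak in every thresholded list. The rank percentiles were 76.4, 79.9, 86.5 and 70.9 in replicates 1 to 4 (mean 78.4 ± 6.54, SD, n = 4). These peaks ranked below those of GlnRS and TrpRS in all 4 libraries. All 4 summits were nearer to GluProRS, with the centre 40 bp upstream of it and 220 bp from AP-1sigma, a clathrin adaptor subunit.

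AspRS, the enzyme for aspartate (FBgn0002069, chr2R:12877004-12883168), was also found in all 4 libraries. Its rank percentiles were 90.5, 82.3, 67.9 and 66.2 in replicates 1 to 4 (mean 76.7 ± 11.7, SD, n = 4). Replicate 1 was the highest, and the range overlapped that of GluProRS. The centre was 8 bp upstream of one AspRS TSS, inside the 5′ UTR of a transcript that starts farther upstream, and 46 bp from Nmda1 on the other strand.

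IleRS, the enzyme for isoleucine (FBgn0027086, chr3L:22288665-22292810), was bound through 3 libraries. The rank percentiles were 13.8, 32.6 and 52.6 in replicates 1, 2 and 4 (mean 33.0 ± 19.4, SD, n = 3), and replicate 3 had no thresholded peak. IleRS is no longer bound when all 4 libraries or only the stronger 50% of each list are asked for. These peaks were weaker peaks than at the other bound cytosolic genes in each of those 3 libraries. The summits agreed to 21 bp, with the centre 15 bp upstream of IleRS, and Hem, a subunit of the actin-regulating SCAR complex, starts 470 bp away.

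AspRS-m, the mitochondrial enzyme for aspartate (FBgn0051739, chr2L:16827078-16832093), was the one bound -m gene. It had no thresholded peak in replicate 1, and rank percentiles of 37.1, 57.6 and 63.7 in replicates 2, 3 and 4 (mean 52.8 ± 13.9, SD, n = 3). The summits were spread over 104 bp, more than the 20 to 44 bp at the 5 cytosolic genes. No other protein-coding gene starts within 1000 bp of the region, which makes this the one of the 6 shared regions with a single protein-coding gene in reach. AspRS-m is no longer bound when all 4 libraries or only the stronger 50% of each list are asked for, nor in the authors' conservative list for the whole series.

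**Figure D1:**
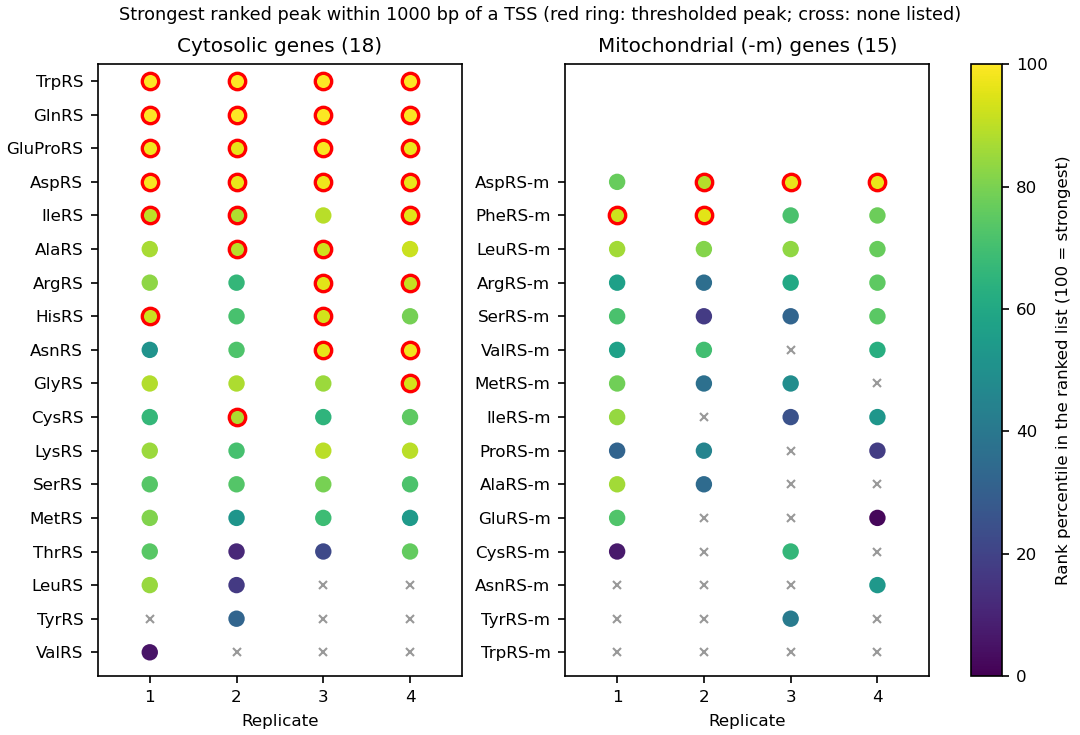
Each dot is the strongest ranked peak within 1000 bp of a TSS of one synthetase gene (rows; 18 cytosolic genes left, 15 -m genes right) in one replicate (columns), coloured by rank percentile in the ranked list, with red rings for a thresholded peak and crosses for no listed peak. TrpRS, GlnRS, GluProRS and AspRS are ringed in all 4 replicates, and 13 -m genes have no ring.

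Among the other cytosolic genes, thresholded peaks were listed in some replicates and not in others. AlaRS had one in replicates 2 and 3, at rank percentiles 38.3 and 18.4, both between its 2 annotated TSS (43 bp downstream of one and 71 bp upstream of the other). ArgRS had one in replicates 3 and 4, at 44.4 and 17.7, and the second was nearer to CG8578. AsnRS also had one in replicates 3 and 4, at 52.7 and 77.2, but the summits were 297 bp and 12 bp upstream, the farther one being closest to the dynactin subunit gene DCTN6-p27. HisRS had one in replicates 1 and 3, at 21.9 and 20. Those HisRS summits lay 696 and 705 bp downstream of its TSS, as far from a TSS of Bx, a LIM-only protein gene, as from HisRS itself.

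CysRS and GlyRS were counted through 1 library each and through distant peaks. The CysRS peak, in replicate 2 at rank percentile 31.3, was 982 bp upstream of CysRS and 37 bp from CG30094. The GlyRS peak, in replicate 4 at 36.4, was 457 bp upstream of GlyRS and 34 bp from sstn. LeuRS, LysRS, MetRS, SerRS, ThrRS, TyrRS and ValRS had no thresholded peak in any library. Together 11 of the 18 cytosolic genes (61.1%) had a thresholded peak in at least 1 library, beside 27.0% of all genes. All 18 have another protein-coding TSS within 1000 bp, and among all genes with such a neighbour the share was 35.4%.

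Of the -m genes, only AspRS-m and PheRS-m had a thresholded peak in any library, 2 of 15 (13.3%). PheRS-m, the mitochondrial enzyme for phenylalanine, had one in replicates 1 and 2, 38 and 50 bp upstream of its TSS. These stood at rank percentiles 24.1 and 75.5, so the 2 libraries that listed it placed it very differently.

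**Figure D2:**
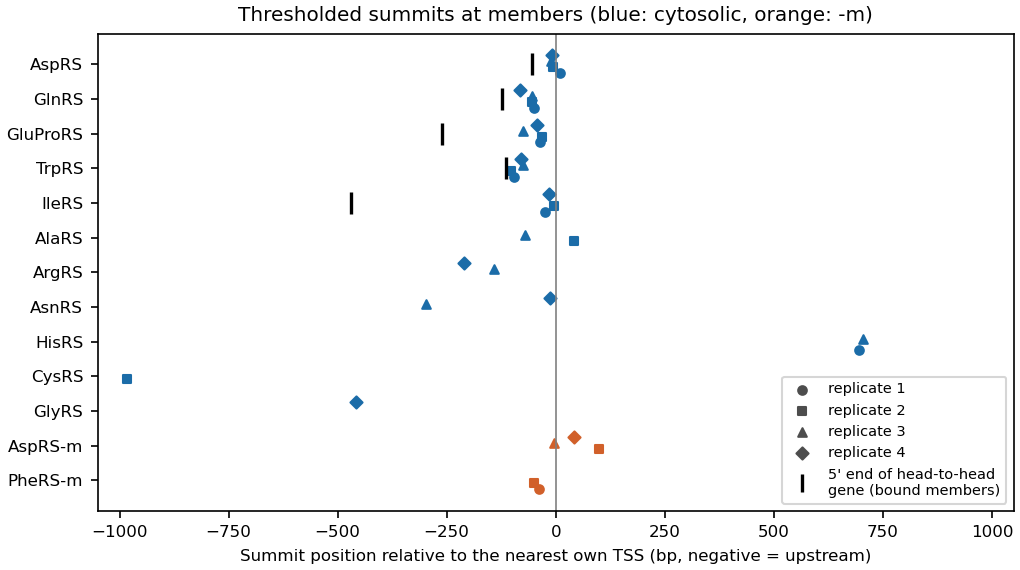
Thresholded summits (marker shape gives the replicate) of the 13 synthetase genes that had any, plotted by distance in bp from the gene's own nearest TSS, negative values upstream; blue rows are cytosolic genes, orange rows -m genes, and black bars the TSS of the partner gene at the bound ones. Summits of the 5 bound cytosolic genes lie close to the TSS, while those of HisRS, CysRS and GlyRS lie 457 to 982 bp away.

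The comparison of the classes was made in each library. In replicate 1 a thresholded peak lay at 6 of 18 cytosolic genes (33.3%) and at 1 of 15 -m genes (6.67%), beside 16.2% of all genes. In replicate 2 the numbers were 7 cytosolic genes (38.9%), 2 -m genes (13.3%) and 20.8% of all genes. In replicate 3 they were 8 cytosolic genes (44.4%), 1 -m gene (6.67%) and 13.2% of all genes, and in replicate 4 again 8 (44.4%) and 1 (6.67%), with 17.4% of all genes. Cytosolic genes were above all genes and -m genes below them in every library.

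The mean share was 40.3% ± 5.32 for cytosolic genes, 8.33% ± 3.33 for -m genes and 16.9% ± 3.14 for all genes (SD, n = 4 libraries). The cytosolic share exceeded the -m share by 31.9 ± 6.75 percentage points (SD), in 4 of 4 libraries (exact sign-flip permutation test over libraries, two-sided, p = 0.13). This is 1 in 8, the smallest p that 4 libraries can give, so the test cannot pass 0.05, and it covers the spread between libraries of the same genes, not the choice of genes. Relative to all genes, the cytosolic share was 23.4 ± 6.88 points higher in 4 of 4 libraries and the -m share was lower in 4 of 4, with a difference of -8.56 ± 1.93 points, each at an exact p of 0.13. For the 33 genes together the share was 25.8% ± 3.03, which is 8.86 ± 4.02 points above all genes (exact p = 0.13).

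The longer ranked lists held a peak at most synthetase genes, as at most genes. Cytosolic genes with a ranked peak numbered 17, 17, 15 and 15 in replicates 1 to 4, and -m genes 12, 9, 9 and 10. The background was high, at 66.8%, 57.9%, 59.6% and 66.1% of all genes. The mean share was 88.9% ± 6.42 for cytosolic genes, 66.7% ± 9.43 for -m genes and 62.6% ± 4.50 for all genes (SD, n = 4). The -m share was close to that of all genes, with differences of 0.380 to 13.2 points, all positive. Cytosolic exceeded -m by 22.2 ± 8.98 points, in 4 of 4 libraries (exact sign-flip permutation test, two-sided, p = 0.13).

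This ranked-list difference did not hold when a peak was counted only for the gene with the nearest TSS. The cytosolic share was then below the -m share, by -2.22 points on average (exact p = 1.00), and the 33 genes were 0.374 points above all genes. Under the same count, the thresholded difference was 19.4 points, with an exact p of 0.13.

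**Figure D3:**
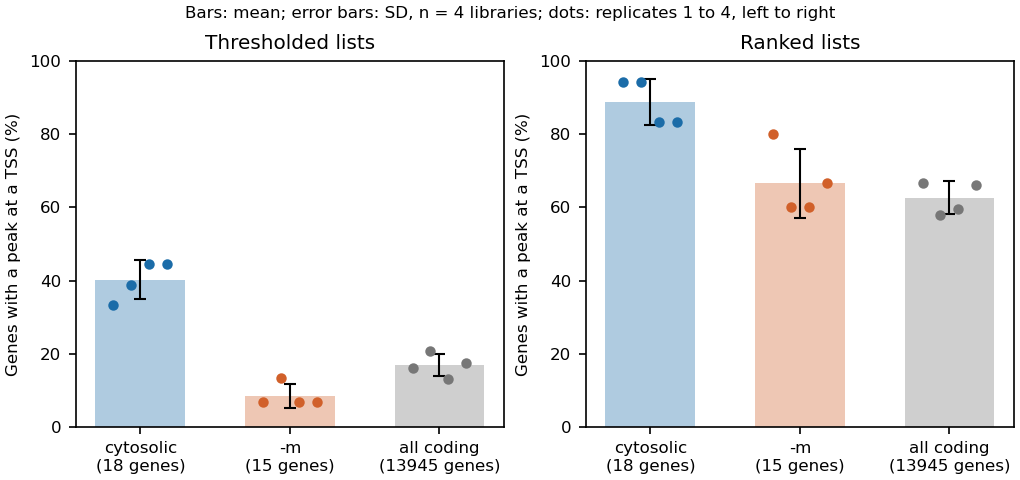
Percentage of cytosolic genes (18), -m genes (15) and all protein-coding genes (13945) with a peak summit within 1000 bp of a TSS, in the thresholded lists (left) and the ranked lists (right); bars are means, error bars SD over 4 libraries, dots the libraries. In the thresholded lists the cytosolic libraries, at 33.3% to 44.4%, do not overlap the -m libraries, at 6.67% to 13.3%.

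A ranked peak in every library was found at 15 of 18 cytosolic genes (83.3%), 5 of 15 -m genes (33.3%) and 43.6% of all genes. The 3 cytosolic exceptions were LeuRS with a peak in 2 libraries, and TyrRS and ValRS with a peak in 1 each. The -m genes present in all 4 were ArgRS-m, AspRS-m, LeuRS-m, PheRS-m and SerRS-m. TrpRS-m was the one gene with no ranked peak in any library, while TrpRS, which charges the same amino acid in the cytosol, stood at rank percentiles of 99.7 to 99.8 in the ranked lists.

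Some genes had steady peaks that missed the threshold. At LysRS the ranked peaks reached percentiles of 85.0, 70.4, 89.7 and 89.6 in replicates 1 to 4, nearer to the ubiquitin ligase gene Hecw than to LysRS in each, with deposited scores of 192 to 504. At LeuRS-m they reached 86.2, 81.3, 83.3 and 76.7, with scores of 237 to 657, and were nearer to Dhc64C except in replicate 3. The lowest score in the thresholded lists was 830, so both genes stayed below it in every library. SerRS had scores of 209 to 573 with summits 3 to 58 bp from its TSS. At the other end, the single ValRS peak stood at percentile 5.11 and lay 783 bp from its TSS.

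Where peaks were present, those at cytosolic genes also ranked higher in 3 of the 4 comparisons with all genes. The median rank percentile of the strongest ranked peak was 85.0, 73.3, 92.8 and 91.8 in replicates 1 to 4 for cytosolic genes. It was 74.6, 45.3, 59.9 and 68.5 for -m genes, and 79.0, 75.5, 76.9 and 79.3 for all genes with a peak. The -m medians were the lowest in every library, and the cytosolic median fell short of that of all genes in replicate 2 alone.

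For 12 amino acids a cytosolic and an -m gene carry the same code in their symbols, so the classes can be set side by side amino acid by amino acid. GluProRS, with its joined code, was left out of these pairs, although GluRS-m and ProRS-m charge the same amino acids. It was bound, with a thresholded peak in 4 libraries, while GluRS-m and ProRS-m had none. Both genes were bound for 1 amino acid, aspartate, the cytosolic gene alone for 2, isoleucine and tryptophan, the -m gene alone for 0, and neither for 9. The cytosolic gene had a thresholded peak in more libraries for 7 amino acids and the -m gene for 0, and for leucine, methionine, serine, tyrosine and valine neither had one. Among the 7, the CysRS peak and all 4 TrpRS peaks were nearer to the TSS of a neighbour. So were the ArgRS peak of replicate 4 and the AsnRS peak of replicate 3. The AlaRS, AspRS and IleRS peaks were nearest to the synthetase gene. In the ranked lists both genes had a peak for 11 amino acids, and the mean percentile over the libraries with a peak was higher for the cytosolic gene in 8 of them and for the -m gene in 3, leucine, tyrosine and valine. These means do not always cover the same libraries. LeuRS stood at 84.6 and 16.9 in replicates 1 and 2, where LeuRS-m stood at 86.2 and 81.3. TyrRS and TyrRS-m had 1 peak each, in different replicates, and ValRS had 1 peak, at 5.11 in replicate 1, where ValRS-m stood at 56.9. AspRS and AspRS-m were both high in the ranked lists, at 97.5 and 89.7, but AspRS-m had no thresholded peak in replicate 1. The genes lie on different chromosome arms, and a link between them was not tested.

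The classes also differ in what stands next to them. Another protein-coding gene starts within 1000 bp of a TSS at 18 of 18 cytosolic genes (100%) and at 7 of 15 -m genes (46.7%), beside 42.9% of all genes. A partner on the opposite strand, starting upstream and read away from the gene, was found at 16 cytosolic genes (88.9%), 7 -m genes (46.7%) and 36.2% of all genes. The share of genes with a peak was higher beside a neighbouring TSS over the genome as a whole. Among all genes, 16.2% of those with such a neighbour were bound and 10% of those without one, and their mean thresholded shares were 22.0% ± 3.39 and 13.1% ± 3.12 (SD, n = 4).

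Among genes with a neighbouring TSS, cytosolic genes still stood at 40.3% ± 5.32 in the thresholded lists, against 0 in all 4 libraries for the 7 -m genes and 22.0% ± 3.39 for all such genes. Those 7 are AlaRS-m, ArgRS-m, AsnRS-m, CysRS-m, LeuRS-m, ProRS-m and TyrRS-m. In the ranked lists the shares were 88.9% ± 6.42 for cytosolic genes, 60.7% ± 7.14 for the 7 -m genes and 73.9% ± 4.83 for all such genes. Both -m genes with thresholded peaks, AspRS-m and PheRS-m, belong to the 8 with no neighbouring TSS. For those 8 the thresholded share was 15.6% ± 6.25, close to the 13.1% ± 3.12 of all genes without a neighbour. No cytosolic gene lacks a neighbour, so the classes can be compared in the first of these groups alone.

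**Figure D4:**
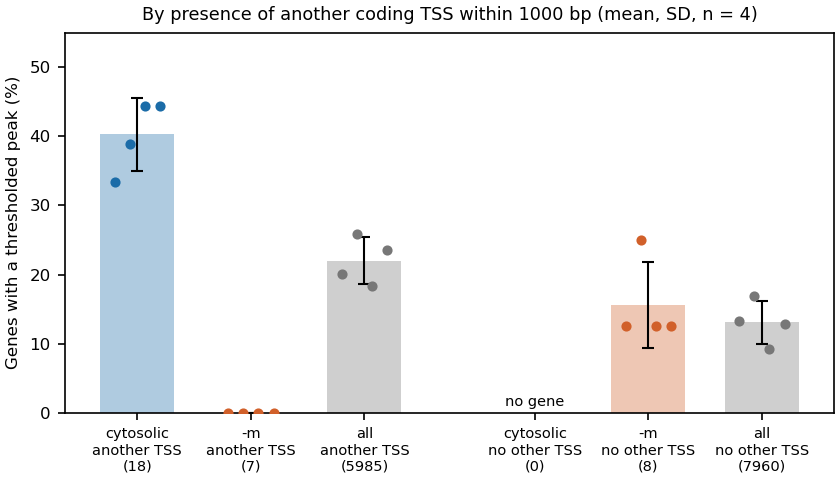
Percentage of genes with a thresholded peak, split by whether another protein-coding TSS lies within 1000 bp (left 3 columns) or not (right 3 columns); bars are means, error bars SD, dots the 4 libraries, and the number of genes is under each column. Cytosolic genes with a neighbour average 40.3%, the 7 -m genes with one are at 0 in all 4 libraries, and no cytosolic gene is without one.

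The number of start sites was a further difference. A single TSS is annotated for 11 of 18 cytosolic genes (61.1%), 13 of 15 -m genes (86.7%) and 73.5% of all genes, and each added TSS widens the stretch searched. Among genes with 1 TSS, 3 of 11 cytosolic genes (27.3%) were bound, 0 of 13 -m genes, and 9.0% of all genes. Among genes with more than 1 TSS, 2 of 7 cytosolic genes (28.6%) were bound, 1 of 2 -m genes, and 22.9% of all genes, so the cytosolic share stood nearer to the background there.

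Motifs were counted on both strands within 50 bases of the centre of each shared region, as a description of the letters only. TATCGATA was found in 3 of the 6 synthetase regions, those of AspRS, IleRS and TrpRS, and in 12.1% of the 1497 shared regions within 1000 bp of a protein-coding TSS. ATCGAT, which TATCGATA contains and which was added after the sequences had been seen, was found in 4, the same 3 and GlnRS, and in 26.6% of those regions. GAGAG was found in 1 (IleRS; 24.8% of those regions), and GGTCACAC, a core promoter motif bound by M1BP, in 1 (AspRS-m; 2.61%). The E-box CACGTG was found in 0 of the 6, as were the ATF4 and C/EBP composite TGATGCAA, the TATA box TATAAA and the STAT motif TTCNNNGAA. Over the 1497 regions these motifs were found in 1.8%, 0.267%, 5.34% and 1.6%, in the same order.

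The same letters were counted in the promoter of every gene, from 250 bases before to 50 after its start. TATCGATA was present in 4 of 18 cytosolic promoters (AlaRS, ArgRS, IleRS and TrpRS; 22.2%), in 1 of 15 -m promoters (PheRS-m; 6.67%) and in 9.36% of all promoters. GGTCACAC was present in 1 cytosolic promoter (GlnRS; 5.56%), in 3 -m promoters (AsnRS-m, AspRS-m and ProRS-m; 20%) and in 7.7% of all. The composite TGATGCAA, a site of ATF4 with C/EBP factors in mammals, was in 0 of the 33 and in 0.817% of all promoters. TATAAA was common everywhere, in 11 cytosolic promoters (61.1%), 7 -m promoters (46.7%) and 45.8% of all. GAGAG was in 4 cytosolic promoters (22.2%), 2 -m promoters (13.3%) and 29.7% of all. CACGTG was in 1 cytosolic promoter (GlnRS; 5.56%), 1 -m promoter (LeuRS-m; 6.67%) and 4.2% of all. TTCNNNGAA was in 0 cytosolic promoters, 1 -m promoter (GluRS-m; 6.67%) and 9.23% of all. ATCGAT was in 7 cytosolic promoters (38.9%), 2 -m promoters (13.3%) and 23.3% of all.

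Genes that work with the synthetases were looked at through a list of aminoacylation partners, of which 19 have a protein-coding entry. Of these 2 were bound (10.5%), GatC and mEFTs, beside 12.7% of all genes. GatC is a subunit of the enzyme that makes glutaminyl-tRNA in mitochondria by amidation, where no -m gene for glutamine exists under the symbol rule. Its region had a rank percentile of 39.8 ± 12.4 (SD, n = 4) and lay nearer to Polr2C, an RNA polymerase II subunit gene. mEFTs, the mitochondrial elongation factor Ts, had 39.9 ± 25.8 (SD, n = 3). The subunit gene alpha-PheRS had no thresholded peak, and beta-PheRS had one in replicates 2 and 4.

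For scale, 13 of 92 cytosolic ribosomal protein genes (14.1%) and 12 of 73 mitochondrial ribosomal protein genes (16.4%) were bound, both near the 12.7% of all genes. No test was made of any of these lists.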

How the data were processed

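Peaks on assembly dm6, per the labels, came from 4 ChIP-seq libraries of 1 group. The authors deposited for each peak a signal value and a score, with no unit stated. Not given in the sources used here are the aligner, the peak caller and what the discovery rate analysis compared. Values were used as deposited, to rank peaks within a list.

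Summits (start plus the deposited offset) were set against every TSS of Ensembl release 115, and thresholded summits were merged across libraries when intervals reaching 100 bp either way touched, which gave 2150 shared regions in at least 3 libraries. Scripts ran in Python 3.11.15 with numpy 2.4.6, pandas 2.3.3 and scipy 1.17.1 and were tested on simulated data. Class differences were taken within each library and tested by exact sign flips.

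The genes, lists and tests were chosen with earlier results of these data known. Every synthetase gene is accounted for, with values in each library for those with a shared region or a thresholded peak. Of the names listed, 10 of 29 partner names, spelling variants included, and 1 of 17 response names, Tor, matched no protein-coding gene. Alternatives varied the TSS window, the gene assignment, the peak threshold, the join window, the number of libraries and the list used.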

Additional observations from a re-analysis of the deposited data

Results flagged for a closer look

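Among 32 sets of 4 libraries examined for a value standing apart from the other 3, 2 were found, and chance gives about 1 in 20. The share of all synthetase genes with a thresholded peak was 21.2% in replicate 1 and 27.3% in each of the other 3 libraries, a step of 7 against 9 genes. The share of -m genes was 13.3% in replicate 2 and 6.67% in each of the other 3, a step of 2 against 1 gene. With so few genes the shares tie often, and a single gene is enough to set a library apart.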

How the results depend on the processing

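No paired analysis was possible because the labels give 1 group. The positive difference between cytosolic and -m genes in the thresholded lists was kept under every alternative run. Among genes with a neighbouring TSS, an alternative chosen after the data were seen, it was 40.3 points. That is the cytosolic share itself, because the 7 -m genes there had no thresholded peak. Under the other alternatives the difference ran from 19.4 to 34.1 points. In the ranked lists it was 1.94 points with a 5000 bp window and reversed to -2.22 with the nearest TSS only. That setting gives each peak to the gene with the nearest TSS, or to each such gene on a tie, and TrpRS loses its region to Vps16A. The strongest ranked peaks of TrpRS, CysRS, GlyRS, LysRS, MetRS and ArgRS-m were nearer to a neighbour in all 4 libraries. In all, 81 values were classed as the same, 26 as moved and 1 as reversed. Shares were judged by the spread between libraries and differences by their direction. A count of bound genes is 1 value without such a spread, so the class says less there. A rise from 6 to 9 synthetase genes bound, in the conservative list, was still classed as the same. Synthetase genes bound numbered 15 at 5000 bp (24.3% of all genes) and 10 with regions in at least 2 libraries (18.8%). In the longest thresholded list they numbered 18 (44.3%). With 1 library left out, regions in at least 2 of the other 3 were counted, a looser rule than 3 of 4. Synthetase genes bound then numbered 7 to 9 (14.6% to 17.2%). They fell to 4, all cytosolic, with the upper 50% of each list (7.06% of all genes) and with regions in all 4 libraries (7.43%), where IleRS and AspRS-m lost their call. Cytosolic genes bound numbered 10, 8 and 14 under the first 3 settings, and 5 to 7 without 1 library. The -m count was 2 at 2000 bp (15.5% of all genes), 5 at 5000 bp, 0 with the upper 50% of each list, 2 with regions in at least 2 libraries, 0 with all 4, 2 in the conservative list (23.1% of all genes), which holds LeuRS-m and PheRS-m and not AspRS-m, 4 in the longest list, 0 among the 7 genes with a neighbouring TSS (16.2% of all such genes), an alternative chosen after the data were seen, and 1 to 2 without 1 library, PheRS-m being added without replicate 3 or 4. The mean thresholded share of the 33 genes, 25.8%, was 28.8% at 2000 bp, 48.5% at 5000 bp, 18.9% with the nearest TSS only, 16.7% with the upper 50% of each list and 29.0% among genes with a neighbouring TSS. The mean ranked share, 78.8%, was 69.7% at 500 bp, 90.2% at 2000 bp, 97.7% at 5000 bp, 53.8% with the nearest TSS only and 65.2% with the upper 50%. Counts of so few genes limit every share here, unknown read depth leaves missing peaks without a value, and which libraries the conservative and longest lists compare is not stated.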

Other observations

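Genes of the response to amino acid supply were bound in 5 of 16 cases (31.2%, 95% Clopper-Pearson interval 11.0 to 58.7), beside 12.7% of all genes. The interval is wide, and the lists were not tested. The bound genes were crc, the fly ATF4, Thor, the translational repressor 4E-BP, the growth regulator Myc, Sesn, a stress-induced inhibitor of the TOR pathway, and AsnS, which makes asparagine. The shared region of crc had a rank percentile of 70.1 ± 6.63 (SD, n = 4), that of Thor 88.8 ± 5.33 (SD, n = 3) and that of Myc 81.6 ± 12.6 (SD, n = 3). Sesn had 2 regions, with 66.4 ± 17.6 (SD, n = 4) at 49 bp upstream of its TSS and 79.2 ± 10.8 (SD, n = 3) at 992 bp upstream. CG46429 has a TSS as near to both as that of Sesn, and CG46314 has one as near to the crc region as that of crc. The AsnS region, with 47.4 ± 4.68 (SD, n = 3), lay 12 bp from a TSS of chb, a microtubule-binding protein gene, and 253 bp from that of AsnS. The kinase gene Gcn2, raptor and rictor of the TOR complexes, RagA-B, RagC-D and mnd had no thresholded peak in any library. Tor itself was not scored, because that name matched no protein-coding symbol. The other unbound genes, PEK, eIF2alpha, S6k, slif and JhI-21, had one in 2 libraries each.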
